A study of Mus musculus with 2 samples.

Results

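Described here are 45 genes of fatty acid oxidation and of the peroxisome, out of 16637 genes with a named probe on the array. They were picked by gene symbol, current or older: carnitine carriers, beta-oxidation enzymes, acyl-CoA thioesterases, uncoupling proteins, PPAR receptors and peroxins. No measured value entered that rule, but the list was drawn up with earlier results of these data known. Of the 45, 43 had a probe, Eci1 under its older symbol, and Hadhb and Ucp2 were not analysed here. The samples were mouse embryonic fibroblasts labelled as Xbp1 knockout, put through drug-induced adipogenesis (formation of fat cells) and collected on day 3 and on day 0, with 1 array per day. Day 3 followed 72 h in medium with the nuclear receptor PPARG's agonist troglitazone (5 µM), the phosphodiesterase inhibitor IBMX (0.25 mM), DXM (5 µM) and insulin (10 µg/ml). Day 0 was the day of confluence, when that treatment began. Both samples carry the knockout label, and fibroblasts with intact Xbp1 were not analysed here. The labels do not say whether the fibroblasts are 1 line or clone, or which part of Xbp1 is deleted.

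Beta-oxidation shortens fatty acids in rounds of dehydrogenation, hydration, a further dehydrogenation and thiolysis, each round releasing acetyl-CoA. Mitochondria take in long-chain fatty acids as carnitine esters and pass the electrons to the respiratory chain, whereas peroxisomes shorten very long and branched chains and import their enzymes through proteins called peroxins. PPAR receptors bind fatty acid-like ligands and are known to regulate many of these genes.

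The values below are quantile-normalized fluorescence signals, and differences are log2 signal on day 3 minus day 0. Detection required a signal above 122, which is the median over all gene probes, on day 3, day 0 or both. About as many single signals fall short of a median as pass it, and since either day was enough, 10656 of 16637 genes were detected. With 1 array per day there was no test, so a difference is set against the scatter of control features printed in 5 or 6 spots. From the median SD of such spots, the SD of a difference between the days was 0.37 to 0.41 over the brightness bins, and this value is the repeat-spot SD below. Pooled over features as a root mean square it was larger, at 0.50 to 1.01. Of 37 detected members, 28 had a difference beyond the median-based value and 19 beyond the pooled one, among them all 12 that differed by at least 2-fold. A 2-fold difference is 1 on the log2 scale, which is close to or above the pooled value in every brightness bin. For those 12 the comparison therefore follows almost from the call and is no separate check. When spots were paired by their row in the tables, which were in the same order for both arrays, the median SD of a difference was 0.09 to 0.27. All of these leave out variation between cultures, extractions and hybridizations. Gene probes had a median raw intensity of 166 on the day 3 array and 78 on the day 0 array, and no member was saturated. All 10 fibroblast markers examined were detected on at least 1 day. Of 8 adipocyte markers on the array 1 was detected, Lpl, which encodes a lipoprotein lipase. The summed signal of those markers was 59606 on day 3 and 8572 on day 0, and without Lpl it was 313 on day 3 and 92 on day 0. Among the undetected ones Adipoq lay just under the threshold on day 3, with 120.5, and had 12 on day 0. Cfd had the reverse order, with 10 on day 3 and 15.5 on day 0. Of 5 macrophage markers Itgam had a signal of 3556 on day 3 and 703.5 on day 0 and Csf1r the reverse order, with 51.5 on day 3 and 269.5 on day 0. Cd68 read 268 on day 3 and 198.5 on day 0, and Ptprc and Adgre1 at most 10.5 on either day. The part of these cell types in the differences below was not tested. In a bulk sample, a change in the share of a cell type and a change in RNA per cell cannot be told apart.

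By quantile normalization most detected members had a higher signal on day 3 (under median scaling as read, 18 of 37 did), and the largest differences were in the entry and first steps of mitochondrial beta-oxidation. Of 37 detected members, 32 had a difference above 0, against 51.5% of all 10656 detected genes, and the median was 0.63 against 0.03. Under median scaling 30 of the 37 were above 0 relative to the median of all detected genes in that setting, and with no normalization 35 were as read and 29 relative to all genes. The sign relative to all genes changed in some setting for 5 members with small differences, namely Etfa, Ehhadh, Acaa1a, Acot8 and Pex14. At least 2-fold higher on day 3 were 11 members, namely Cpt1a, Cpt2, Acadl, Acadvl, Ech1, Hadha, Acadm, Decr1, Pex6, Hsd17b4 and Acadsb. Over all detected genes 12.8% were 2-fold higher and 10.3% were 2-fold lower. Of the members 1 was 2-fold lower, the thioesterase gene Acot2. Members were often bright: 30 of the 37 lay in the brighter part of the detected genes, above a mean log2 signal of 10.0, where 8.2% of genes were 2-fold higher and 7.47% lower. All 11, and 35 of the 37, were detected on both days, and of all genes detected on both days 10.1% were 2-fold higher and 8.43% lower. The count depends on the scale put on the arrays. Relative to the median of all detected genes, 6 members were 2-fold higher and 1 lower under median scaling, where 15.1% and 10.1% of all genes were, and 5 were higher and 1 lower with no normalization, where 16.5% and 10.5% were. As read, median scaling gave 1 member higher and 2 lower (all genes 7.78% and 24.3%), and no normalization gave 22 higher and 0 lower (35.7% and 2.85%). Each of the 11 stayed above 0 in these settings and in cyclic loess, both as read and relative to all genes.

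**Figure D1:**
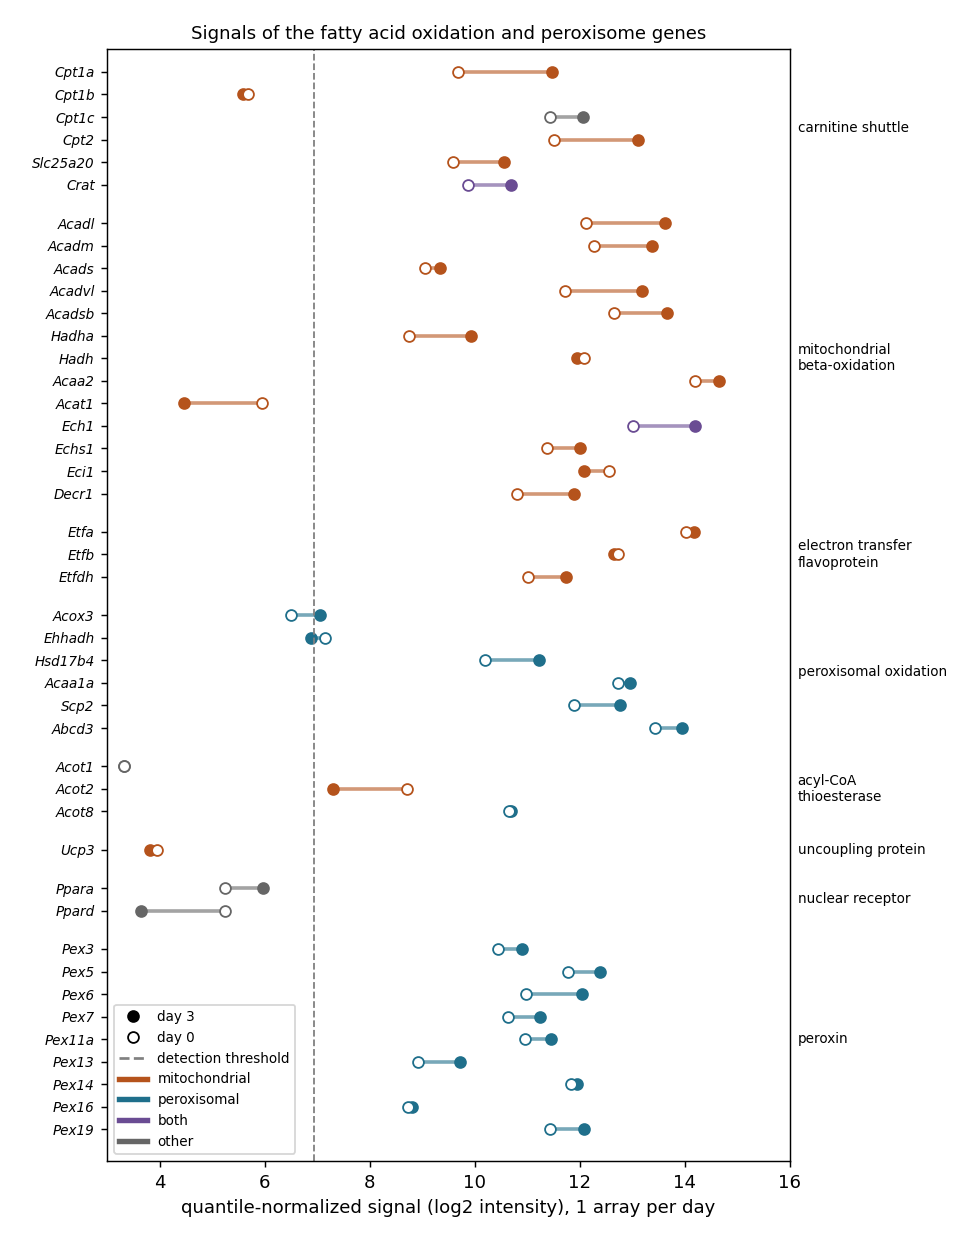
Quantile-normalized log2 signal of the 43 members with a probe, by role. Filled points are day 3, open points day 0, with 1 array per day, and the dashed line is the detection threshold of 122 (6.93 on the log2 scale). The lines of Cpt1a, Cpt2, Acadl and Acadvl are the longest with day 3 on the right, and 6 members lie left of the threshold on both days. Distances between the points of 1 gene can be read, but positions of different genes cannot be compared, since each probe has its own brightness.

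The carnitine shuttle carries fatty acids across the mitochondrial membranes. By the brightest probe all 5 detected genes of this set were above 0, with a median of 0.97. They include Crat, whose detected probes disagree, and Cpt1c, which is not counted as mitochondrial below. Under median scaling the median was 0.45 as read, and Cpt1c was below 0. Of all detected genes 51.5% were above 0 by quantile normalization. Cpt1a encodes the carnitine palmitoyltransferase of the outer membrane that sets the rate of entry. Its signal was 2823.5 on day 3 and 826 on day 0, a 3.42-fold higher level (1.77), and its difference exceeded that of 96.8% of detected genes. Cpt2, which turns the carnitine ester back into acyl-CoA inside the mitochondrion, had 8895 on day 3 and 2926 on day 0, 3.04-fold higher (1.60). The difference between Cpt1a and Cpt2, 0.17, was smaller than its repeat-spot SD of 0.54. Slc25a20, the inner membrane carrier that swaps acylcarnitine for carnitine, had 1509 on day 3 and 769.5 on day 0, just short of 2-fold (0.97). Crat, an acetyltransferase of mitochondria and peroxisomes that handles short chains, had 1655 on day 3 and 940 on day 0 (0.82). The other detected probe of Crat gave 149 on day 3 and 226.5 on day 0 (-0.60), so the direction of Crat is not settled. Among the paralogues of Cpt1a, Cpt1c, the form known from brain, had 4264.5 on day 3 and 2760 on day 0 (0.63 as shown, -0.03 under median scaling as read). The other probe of Cpt1c was below the threshold, with 44 on day 3 and 52.5 on day 0 (-0.25). Cpt1b, the muscle form, was below the threshold with signals of 48 on day 3 and 51 on day 0.

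The acyl-CoA dehydrogenases catalyse the first step of each round, and each works on its own range of chain lengths. Acadvl, for very long chains, had a signal of 9324.5 on day 3 and 3388 on day 0 (1.46, 2.75-fold). Acadl, for long chains, had 12672 on day 3 and 4473.75 on day 0 (1.50, 2.83-fold). Acadm, for medium chains, had 10569 on day 3 and 4931 on day 0 (1.10, 2.14-fold). These 3 genes were all 2-fold higher and do not stand apart from their neighbours in this order: Acadvl and Acadl differed by -0.04 and Acadl and Acadm by 0.40, both within the repeat-spot SD of 0.52. Acads, for short chains, had 649 on day 3 and 531 on day 0, a difference of 0.29 that was within its repeat-spot SD of 0.40, and it read -0.15 under median scaling. The differences of Acadm and Acads were 0.81 apart, with a repeat-spot SD of 0.54, and those of Acadvl and Acads 1.17 apart, both within the pooled SD of 1.35. Acadsb, for short branched chains from amino acids, had 12969 on day 3 and 6404.5 on day 0 (1.02, 2.03-fold).

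Promoter windows are shown for Cpt1a and for 3 of the dehydrogenases, Acadvl and Acadm as 2-fold higher members and Acads as the chain-length relative that was not. PPAR receptors bind, with a retinoid X receptor partner, a direct repeat of the hexamer AGGTCA with a spacer base. RefSeq windows on GRCm38.p6, from 250 bases before to 50 after the annotated start, were found for 38 of the 45 members (42 windows) and searched on both strands. The hexamer was present in 7 of the 42 windows (16.7%), against 16.3% of all 32851 windows, and the full repeat AGGTCANAGGTCA, whose matches also count as hexamers, in 0 of 42 and in 0.04% of all. Among 2-fold higher members with a window 3 of 9 held the hexamer, namely Cpt1a, Acadvl and Acadm, and among other detected members 3 of 23 did. The windows of the dehydrogenase genes Acadl and Acadsb, also 2-fold higher and not printed, held none. The printed windows therefore do not stand for the 2-fold higher members. The GC box GGGCGG was present in 32 of the 42 windows (76.2%), against 35.7% of all, and the median GC content was 59% against 52.7%. In the windows printed here, in the direction of the gene, capitals mark the hexamer on either strand, at position -94 from the start in Cpt1a (chr19:3323051-3323350, plus strand), -87 in Acadvl (chr11:70015379-70015678, minus strand) and -249 in Acadm (chr3:153944594-153944893, minus strand), while the Acads window (chr5:115119297-115119596, minus strand) has none.
Cpt1a: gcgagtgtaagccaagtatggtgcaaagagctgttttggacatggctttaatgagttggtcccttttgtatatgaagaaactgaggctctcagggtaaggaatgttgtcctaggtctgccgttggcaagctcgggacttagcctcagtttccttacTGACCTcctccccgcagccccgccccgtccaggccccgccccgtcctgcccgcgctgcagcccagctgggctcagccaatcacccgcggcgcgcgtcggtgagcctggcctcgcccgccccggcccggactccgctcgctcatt
Acadvl: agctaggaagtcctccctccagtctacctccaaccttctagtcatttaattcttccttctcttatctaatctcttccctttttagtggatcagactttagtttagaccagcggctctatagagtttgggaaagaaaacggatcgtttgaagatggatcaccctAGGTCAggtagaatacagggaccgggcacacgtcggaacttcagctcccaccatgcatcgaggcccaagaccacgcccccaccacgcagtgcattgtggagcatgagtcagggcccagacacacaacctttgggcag
Acadm: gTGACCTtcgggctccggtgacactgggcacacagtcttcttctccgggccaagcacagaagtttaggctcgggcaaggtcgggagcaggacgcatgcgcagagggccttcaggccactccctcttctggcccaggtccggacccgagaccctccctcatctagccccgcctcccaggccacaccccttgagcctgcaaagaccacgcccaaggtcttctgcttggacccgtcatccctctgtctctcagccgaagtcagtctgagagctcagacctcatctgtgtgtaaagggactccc
Acads: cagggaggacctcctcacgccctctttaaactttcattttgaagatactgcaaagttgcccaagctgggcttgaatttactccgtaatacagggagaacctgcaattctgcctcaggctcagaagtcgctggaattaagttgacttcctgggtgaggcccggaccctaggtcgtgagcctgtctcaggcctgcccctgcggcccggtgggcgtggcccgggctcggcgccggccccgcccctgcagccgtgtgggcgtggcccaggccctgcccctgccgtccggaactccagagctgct

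Of the later steps of the mitochondrial spiral, the first genes act from hydration to thiolysis. Hadha, the alpha subunit of the trifunctional protein that carries out the remaining steps on long chains, had 968.5 on day 3 and 430 on day 0 (1.17, 2.25-fold). Echs1, the hydratase for short chains, had 4131.5 on day 3 and 2663.5 on day 0 (0.63), and its difference was -0.02 under median scaling as read. Acaa2, a thiolase that releases acetyl-CoA, had 25733.5 on day 3 and 18673.5 on day 0 (0.46, and -0.22 under median scaling as read). Of these 3 genes Hadha was 2-fold higher on day 3, and the other two were not. Hadh, the short-chain hydroxyacyl-CoA dehydrogenase, had probes at odds. Its brighter probe gave 3968 on day 3 and 4309 on day 0 (-0.12), and the other 1579 on day 3 and 501 on day 0 (1.66), so no direction is given for it.

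Enzymes that adapt unsaturated fatty acids for the spiral went in both directions. Ech1, a dienoyl-CoA isomerase of mitochondria and peroxisomes, had 18795 on day 3 and 8257 on day 0 (1.19, 2.28-fold). Decr1, the mitochondrial dienoyl-CoA reductase, had 3808.75 on day 3 and 1778 on day 0 (1.10, 2.14-fold). Eci1, the mitochondrial enoyl-CoA isomerase, was lower on day 3, with 4347 against 6044.5 on day 0 (-0.48, beyond the repeat-spot SD of 0.37 but within the pooled one of 0.90), and it stayed below 0 in all 4 normalizations. Acat1, the thiolase that also acts in ketone body and isoleucine metabolism, was below the threshold on both days (22 on day 3, 61.5 on day 0). Of the 12 detected genes in the mitochondrial beta-oxidation set, 7 (58.3%) were 2-fold higher, against 12.8% of all detected genes, and 0 were 2-fold lower, with a median of 1.06. Under median scaling 0 of the 12 were 2-fold higher as read, with a median of 0.39, and 3 were relative to all genes.

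The electron transfer flavoprotein takes electrons from the dehydrogenases and hands them, through its own dehydrogenase, to ubiquinone. Neither subunit differed beyond its repeat-spot SD of 0.37. Etfa had 18557.5 on day 3 and 16676 on day 0 (0.15), and its other probe gave 0.01. Etfb had 6461.5 on day 3 and 6762.5 on day 0 (-0.07). Etfdh, the membrane enzyme that reduces ubiquinone, had 3431.5 on day 3 and 2075 on day 0 (0.73, 1.65-fold).

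Peroxisomal oxidation genes had a median of 0.53 over 6 detected members, of which 1 (16.7%) was 2-fold higher, near the 12.8% of all detected genes, and 0 were 2-fold lower. The median was 0.02 under median scaling as read, and 0.37 when dim signals were raised to the threshold. The member past 2-fold was Hsd17b4, the D-bifunctional protein, which hydrates and dehydrogenates the chains of very long and branched fatty acids, with 2389 on day 3 and 1178.5 on day 0 (1.02, 2.03-fold). Ehhadh, the L-bifunctional counterpart, lay at the threshold, with 118 on day 3 and 141 on day 0, at least 1.16-fold lower on day 3. It read above 0 with no normalization (0.82), so its direction is not settled. Scp2, whose products include a thiolase for branched chains and a sterol carrier protein, had 7000.5 on day 3 and 3799.5 on day 0 (0.88), and its other detected probe gave 1.02. Abcd3, a transporter that admits fatty acyl-CoA to the peroxisome, had 15704.5 on day 3 and 11060.5 on day 0 (0.51, with 0.12 by its other probe and -0.17 under median scaling as read). Acaa1a, the straight-chain thiolase, had 7969 on day 3 and 6746.5 on day 0 (0.24, within its repeat-spot SD of 0.37). Acox3, an oxidase for branched chains, was detected on day 3 only (133, against 90.5 on day 0) and was at least 1.09-fold higher.

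Peroxins build the organelle and import its enzymes. The 9 among the members were all detected on both days and all above 0, with a median of 0.60 and a range of 0.07 to 1.07. Outside the members 3 more were detected, with Pex2 at -0.54, Pex26 at 0.19 and Pex11g at 0.98. Under median scaling the median of the 9 was -0.07 as read, with Pex3, Pex5, Pex11a, Pex14, Pex16 and Pex19 below 0. Relative to all genes in that setting the median was 0.42. By quantile normalization 51.5% of all detected genes were above 0. Of the 9 peroxins, 1 (11.1%) was 2-fold higher, near the 12.8% of all detected genes. It was Pex6, an ATPase that helps to recycle the import receptor, with 4239.5 on day 3 and 2017 on day 0 (2.10-fold). Its other probe, below the threshold on both days, went the other way (-0.69). With the mean of all probes Pex6 read 0.19, short of 2-fold. The import receptors were close to each other. Pex5, which recognises the carboxy-terminal targeting signal, had 5337 on day 3 and 3517.5 on day 0 (0.60). Pex7, which recognises the amino-terminal signal, had 2417 on day 3 and 1587.5 on day 0 (0.61). Of the docking proteins at the membrane, Pex13 had 842.5 on day 3 and 483 on day 0 (0.80).
Its partner Pex14 had 3948.5 on day 3 and 3661.25 on day 0 (0.11, within the repeat-spot SD of 0.40). Another 3 peroxins insert membrane proteins, and their differences lay at most 0.58 apart, with a repeat-spot SD of 0.56. Pex19, their soluble chaperone, had 4335.5 on day 3 and 2754 on day 0 (0.65). Pex3, its docking receptor, had 1910.75 on day 3 and 1396 on day 0 (0.45). The other probe of Pex3 was below the threshold, with 15.5 on both days. Pex16 had 444.5 on day 3 and 423.5 on day 0 (0.07, within its repeat-spot SD of 0.40). Pex11a, which promotes peroxisome division, had 2792 on day 3 and 1989.25 on day 0 (0.49) by its brighter probe and 1426 on day 3 and 638.5 on day 0 (1.16) by the other.

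**Figure D2:**
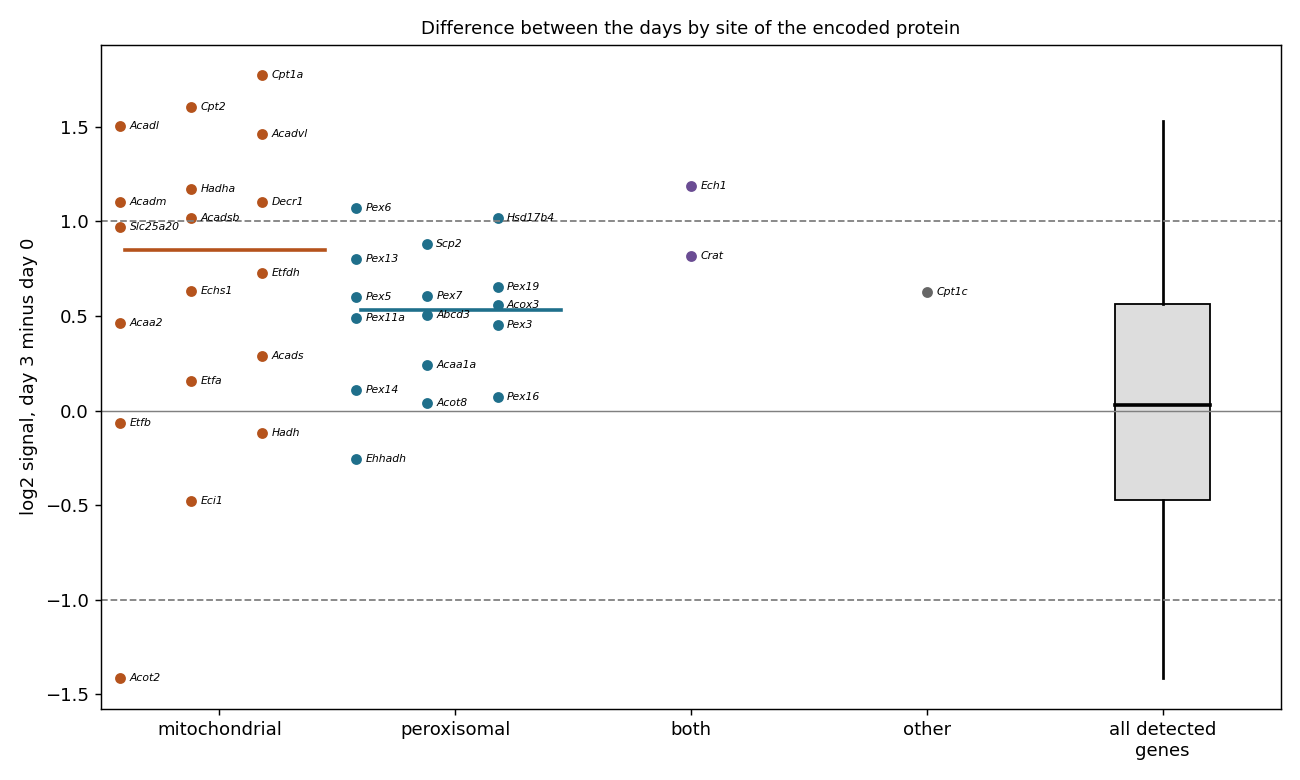
Log2 signal on day 3 minus day 0 for the 37 detected members, by the site of the encoded protein. Each point is a gene, coloured lines are group medians (0.85 mitochondrial, 0.53 peroxisomal; the peroxisomal median is -0.10 under median scaling as read), dashed lines mark 2-fold, and the box of all 10656 detected genes shows median and quartiles, with whiskers from percentile 5 to percentile 95. Most points lie above 0, and Acot2 is the lowest.

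Acyl-CoA thioesterases cut acyl-CoA to free fatty acid and CoA. Acot2, the mitochondrial form, was the only detected member 2-fold lower on day 3, with 156.75 against 417 on day 0 (-1.41, 2.66-fold), and its other probe gave 101 on day 3 and 163 on day 0 (-0.69). In the authors' table the difference was -0.95. Acot8, the peroxisomal form, had 1643.25 on day 3 and 1601 on day 0 (0.04). Acot1, the cytosolic form, lay at the floor of 10 on both days. Acot1 and Acot2 are close paralogues, and since probe sequences were not analysed here, signal shared between them cannot be told apart.

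The fatty acid-sensing receptors among the members were dim. Ppara, the receptor that drives oxidation genes in liver, had 62.5 on day 3 and 38 on day 0, and Ppard, the widely expressed form, had 12.5 on day 3 and 38 on day 0, all under the threshold of 122. Ucp3, an inner membrane carrier known from muscle, had 14 on day 3 and 15.5 on day 0. With Cpt1b, Acat1 and Acot1, these made up the 6 members below the threshold on both days, and each of the 6 was below it in all 4 normalizations too. A gene with a dim probe may still be expressed.

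Mitochondrial members were set against peroxisomal ones by the known site of the protein, leaving out Crat and Ech1, which act in both, and 4 genes that act elsewhere. Of 18 detected mitochondrial members 8 (44.4%) were 2-fold higher and 1 was 2-fold lower, with a median of 0.85. Of 16 detected peroxisomal members 2 (12.5%) were 2-fold higher, near the 12.8% of all detected genes, and 0 were lower, with a median of 0.53 (-0.10 under median scaling as read, where the mitochondrial one was 0.23). The mitochondrial differences were the more spread, from -1.41 to 1.77, against -0.26 to 1.07, and the ranges overlap over the whole peroxisomal span. The medians were 0.32 apart, and 0.34 apart with carriers and enzymes alone, that is without the peroxins, Ucp2 and Ucp3. The gap fell to 0.10 once members below the threshold were counted, because the 3 such mitochondrial members, Cpt1b, Acat1 and Ucp3, had quantile-normalized differences below 0. With dim signals of detected members raised to the threshold instead, so that a fold is a bound, the gap was 0.35. In that setting the peroxisomal median without the peroxins was 0.24, and the mitochondrial one stayed at 0.85. No test of the gap was possible with 1 array per day. In the lists outside the members, given below, the order was reversed. Of 23 other detected peroxisomal enzymes and transporters 7 (30.4%) were 2-fold higher, with a median of 0.59. Of 23 other detected mitochondrial acyl-CoA genes 4 (17.4%) were, with a median of 0.28. With dim signals raised to the threshold those medians were 0.36 and 0.24. The gap therefore holds for these members and is not shown for the organelles.

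**Figure D3:**
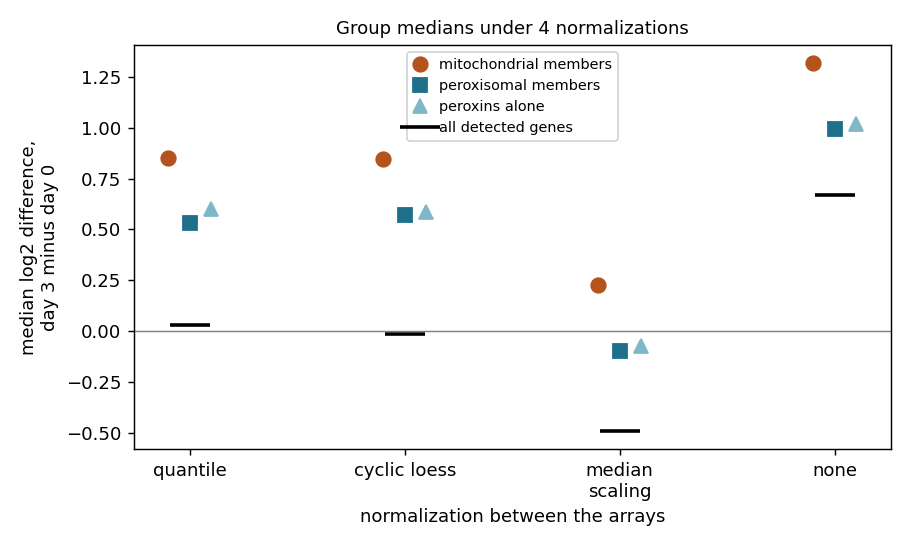
Median log2 difference, day 3 minus day 0, over detected mitochondrial members, peroxisomal members, peroxins alone and all detected genes, under 4 normalizations between the arrays. The member medians lie above the bar of all genes in each setting, and the peroxisomal (-0.10) and peroxin (-0.07) medians fall below 0 under median scaling, where the median of all genes is -0.49.

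Probes for the same gene gave a check within the array. Of 10 members with more than 1 probe, 7 had at least 2 detected probes. The signs matched for Abcd3, Acot2, Etfa, Pex11a and Scp2 and were opposed for Crat and Hadh. None of the 11 members called 2-fold higher had a second detected probe, so no such check exists for them.

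**Figure D4:**
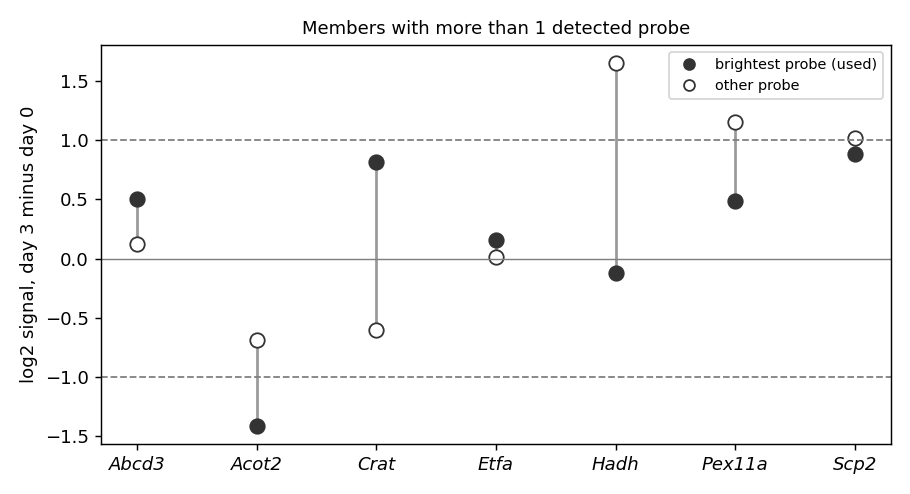
Log2 signal on day 3 minus day 0 by probe, for the 7 members with more than 1 detected probe. Filled points are the brightest probe, which stands for the gene, open points the other probe, and dashed lines mark 2-fold. Hadh (-0.12 and 1.66) and Crat (0.82 and -0.60) have probes on opposite sides of 0.

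Further genes of the same organelles were read from lists drawn up alongside the members. Of 23 detected peroxisomal enzymes and transporters outside the members, 7 were 2-fold higher by the signals as they stood and 2 were 2-fold lower, with a median of 0.59 (0.35 under cyclic loess, and under median scaling -0.0001 as read and 0.49 relative to all genes). Those counts are 30.4% and 8.70%, against 12.8% and 10.3% of all detected genes. When dim signals were raised to the threshold, so that a fold is a bound, 5 stayed 2-fold higher and 2 lower, with a median of 0.36, where 10.2% and 8.51% of all genes were. Acot5, a peroxisomal thioesterase, was highest, with 6424.5 on day 3 and 1290.5 on day 0 (4.98-fold). Cat, the catalase that breaks down the hydrogen peroxide made by peroxisomal oxidases, had 1058.5 on day 3 and 295 on day 0 (3.59-fold). Phyh, which starts the breakdown of the branched phytanic acid, had 143.5 on day 3 and, below the threshold, 58 on day 0, and was at least 1.18-fold higher. Nudt19, a CoA diphosphatase, was lower, with 1058.5 on day 3 and 2629.25 on day 0 (-1.31, and -1.13 by its other probe). Of 3 other detected peroxins none was 2-fold different: Pex11g gave 0.98, Pex26 0.19 and Pex2 -0.54.

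Mitochondrial acyl-CoA genes outside the members, many of which act on branched-chain amino acids, had 23 detected genes. Of these, 4 (17.4%) were 2-fold higher, near the 12.8% of all detected genes, and 1 was 2-fold lower, with a median of 0.28 (-0.21 as read under median scaling, 0.28 relative to all genes there). Auh, an enoyl-CoA hydratase of leucine breakdown, had 1373 on day 3 and 234 on day 0 (5.87-fold). Hibch, which acts in valine breakdown, had 496.5 on day 3 and 184 on day 0 (2.70-fold), and Pcca, a subunit of propionyl-CoA carboxylase, had 1724 on day 3 and 701 on day 0 (2.46-fold). Acad9, a dehydrogenase relative known for the assembly of respiratory complex I, was lower, with 1116.25 on day 3 and 2750.75 on day 0 (-1.30, and -1.05 by its other probe).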

How the data were processed

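Total RNA was amplified from 1 µg, labelled with Cy5 and hybridised by Phalanx, per the labels' protocols. The deposited per-sample tables gave a linear fluorescence intensity for each of 39200 spots. The 7402 empty spots had a median of 0 on both days, so background appears to have been subtracted already. No label or header names the scanner, the image software or the background method. The authors' deposited series table, with an intensity for 11482 of the 29922 gene probes, served as an alternative. Groups came from the stage in the labels.

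Gene probes were quantile normalized (limma 3.58.1, R 4.3.3), floored at 10 and put on the log2 scale, computed here from the deposited intensity. Symbols came from the platform annotation, updated through RefSeq GRCm38.p6 (21020 probes with 1 symbol, 8902 with none, 0 with several). The brightest probe stood for a gene. Signals of 65000 or more counted as saturated. For a gene below the threshold of 122 on 1 day the fold is a bound against that threshold. Calls are differences of at least 2-fold. The normalization was tested on simulated data, 29922 probes of the day 3 and day 0 pair. There it put all 100 probes raised 4-fold and all 100 lowered 4-fold past 2-fold. Both simulated arrays came from the same averaged profile, with a constant scale between them and noise smaller than the repeat-spot SD. The changed probes were all brighter than the median. Quantile normalization removes a constant scale by design, so this recovery checks little more than the code. A scale that varies with brightness was not simulated. Recovery of folds below 4 was not tested, and by quantile normalization every detected member differed by less than 4-fold. The number of arrays limits the precision, and there is no p-value.

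The members and gene lists were chosen with earlier results of these data known. Every detected member is named with both signals, and of the other lists up to 4 detected genes each with the largest differences that kept their sign in every normalization; the markers, Pex26 and Bdh2 are named outside that rule, chosen after their values were seen. Alternatives were 3 other normalizations, an offset of 50, 4 treatments of dim signals, the mean of all probes, the authors' table and narrower compartments; reading them relative to all genes was added after the data were seen.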

Additional observations from a re-analysis of the deposited data

How the results depend on the processing

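The scale put between the arrays mattered most. Under median scaling the counts of members 2-fold higher and lower were 1 and 2, and the medians were 0.23 for mitochondrial members, -0.0985 for peroxisomal members and -0.0699 for peroxins, where the median of all detected genes was -0.49. Relative to it, 6 members were higher and the medians were 0.71, 0.39 and 0.42. With no normalization the counts were 22 and 0 and the medians 1.32, 0.99 and 1.02, against 0.67 for all genes, and relative to it 5 were higher and the medians were 0.65, 0.32 and 0.35. These 2 settings differ by a constant per array, so their likeness is no separate check. Without a detection filter, or with the threshold at the level of empty spots, 3 members were 2-fold lower, because Acat1 and Ppard were added, the mitochondrial median was 0.63 and its gap to the peroxisomal one 0.10. In the table of the authors, 0 were 2-fold lower, as read or relative to all genes. Cyclic loess, the offset, detection on both days, dim signals set to the threshold, the mean of all probes and the narrower compartments kept the direction of these results. In these settings the medians of mitochondrial members, peroxisomal members and peroxins moved by less than a spread. The spread was computed from the repeat-spot SD and the number of members. It treats the members as independent, and the counts have no spread of their own. With dim signals set to the threshold, the median of peroxisomal members without the peroxins moved by more, from 0.51 to 0.24 against a spread of 0.19. The median of peroxisomal enzymes and transporters outside the members, for which no spread was computed, fell from 0.59 to 0.36 in that setting. Under cyclic loess it was 0.35. Of 510 values of single members under the alternatives, 430 moved by less than the repeat-spot SD, 80 moved by more, and 0 of the 2-fold members changed sign. Many of the 430 could not move. A changed detection rule leaves the value of a detected member as it was, and the mean of all probes leaves members with 1 probe unchanged. As read, 33 of the 37 members moved by more under median scaling and all 37 with no normalization. With the mean of all probes, dim ones included, 4 members moved by more than the repeat-spot SD: Pex6 read 0.19, Crat 0.11, Cpt1c 0.19 and Hadh 0.77. No paired analysis was possible because each day is 1 array and the labels give no replicate numbers, and no replicate could be left out. Signals near the threshold (Acox3, Ehhadh, Acot2) are the least certain.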

Other observations

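Genes that feed fatty acids into oxidation or control it differed in both directions. Of 6 detected fatty acid activation genes 1 was 2-fold higher and, by signals of which 1 was below the threshold, 1 was 2-fold lower (0 as a bound), with a median of -0.07 (1.14 as read with no normalization, 0.47 relative to all genes there). The higher and lower shares were 16.7% each, against 12.8% and 10.3% of all detected genes. Acsl4, an acyl-CoA synthetase that favours arachidonic acid, had 26568 on day 3 and 8749.5 on day 0 (1.60), and its other 3 probes gave 1.63, 1.26 and 1.20. Acsl1, the synthetase known from fat cells and liver, had 1670.5 on day 3 and 2587 on day 0 (-0.63). Acsl6 was 111.5, below the threshold, on day 3 and 233 on day 0, and Acsl3 differed by 0.31. Oxct1, which starts the use of ketone bodies, had 8115.5 on day 3 and 14486.5 on day 0 (-0.84), and the other detected ketone gene, Bdh2, gave -0.09.

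Of 11 detected regulators of oxidation 3 were 2-fold higher (2 as a bound) and 1 was 2-fold lower, with a median of 0.41 (-0.19 as read under median scaling, 0.29 relative to all genes there). The 3 and the 1 are 27.3% and 9.09%, against 12.8% and 10.3% of all detected genes. Acacb, whose product makes the malonyl-CoA that inhibits the carnitine palmitoyltransferase of mitochondria, had 1224 on day 3 and 396 on day 0 (1.63). Lpin1, a phosphatidate phosphatase that also acts as a coactivator, had 1802.75 on day 3 and 715.5 on day 0 (1.33). Rxrg, a retinoid X receptor, was at least 1.33-fold higher, with 162 on day 3 and 45.5, below the threshold, on day 0. The coactivator gene Ppargc1b had 137 on day 3 and 283 on day 0 (-1.05).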
